A study of Mus musculus with 4 samples.

Results

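The genes described here are 33 transcriptional targets of p53, chosen by name and found through the gene symbols of the array platform. All 33 had a probe set, out of 18193 mouse genes measured, and 32 of them had a signal above the floor, the median of the array, on at least 1 array. RNA of 4 cultures was hybridised to Affymetrix arrays, with 1 array each. Germline stem (GS) cells are cultured spermatogonial stem cells, and multipotent germline stem (mGS) cells are their ES-like derivatives. The ES cells were of the mouse line R1. The remaining culture was GS cells of a Trp53 knockout, labelled ICR, the name of an outbred mouse stock. No stock is named for the other cultures and their Trp53 genotype is not stated, so genotype and stock cannot be told apart. The GS and knockout GS cells were kept in a modified StemPro-34 medium, and the mGS and ES cells in ES cell medium. Trp53 itself is not reported, which leaves the knockout label without a check at that gene.

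The transcription factor p53 accumulates after DNA damage and other stress and binds response elements built of adjacent decamers, each with a conserved C and G at its core. Its targets halt the cell cycle, start apoptosis, repair DNA and adjust metabolism, and several of them act back on p53. Many are also transcribed by other factors without p53. In germ cells p53 is known for removing damaged cells, and ES-like colonies have been derived from cultures of p53-deficient testis.

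Sequence matches to the p53 element are shown first, because they show which genes carry the letters of the element near a start site. RefSeq promoter windows (GRCm38.p6, 250 bases before to 50 after a start site, 300 in all) were at hand for 25 of the 33 genes; Perp, Pmaip1, Ptp4a3, Rrm2b, Tnfrsf10b, Trp53inp1, Xpc and Zmat3 were not among them. The p53 consensus of 2 adjacent decamers was searched with its 4 core C and G positions fixed and at most 3 other mismatches. It reads the same on both strands. Of the 25 genes, 7 held a match, or 28.0%, against 1.63% of the 27025 genes in the table; many of the 33 genes are known as p53 targets through such elements, so the share describes the list and is no finding. Capitals mark bases that fit the consensus and lower case those that do not, on the strand of the gene.
Ccng1: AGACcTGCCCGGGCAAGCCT
Rps27l: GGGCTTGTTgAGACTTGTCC
Bbc3: ctGCAAGCCCcGACTTGTCC
Aen: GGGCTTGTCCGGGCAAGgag
Gpx1: GAGCTAGaCCAGACccGCCC
Tigar: GGtCTAGCTCtGGCAAGaCT
Sesn1: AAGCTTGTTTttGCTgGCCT

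Ccng1 and Rps27l had 1 mismatch each. At most 1 was found for 22 genes of the whole table, or 0.0814%. The Ccng1 match lies at chr11:40755462-40755481 on the minus strand, 195 bases before the start site and outside the gene's span. That of Rps27l lies at chr9:66946296-66946315 on the plus strand, inside the gene's span, 117 bases before one of its listed start sites. The match in Bbc3, at chr7:16309486-16309505, begins 97 bases before a start site and is also inside the gene's span. The others lie at chr7:78895937-78895956 in Aen and chr10:41887266-41887285 in Sesn1, inside the spans, at chr9:108339074-108339093 across the start of Gpx1, and at chr6:127109746-127109765 upstream of Tigar, on the minus strand there and on the plus strand elsewhere. The stretch from 250 to 51 bases before the Ccng1 start, chr11:40755337-40755536 on the minus strand, overlaps no annotated gene and is printed to show the setting of a match with 1 mismatch in a gene at least 2-fold lower in the knockout, with the match in capitals.
Ccng1: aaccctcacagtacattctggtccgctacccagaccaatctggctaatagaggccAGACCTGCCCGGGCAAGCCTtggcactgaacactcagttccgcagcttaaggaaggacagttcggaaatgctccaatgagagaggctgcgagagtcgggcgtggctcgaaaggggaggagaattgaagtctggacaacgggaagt

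A match is a description of the letters and says nothing of binding. A gene without one in this window may carry an element elsewhere.

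Signals below are quantile-normalised and on a linear scale. A signal under the array median of 82.7 was raised to that floor, so a difference against it is a bound, written "at least"; where both arrays were under it, no difference is given. Groups hold 1 array each, so nothing could be tested against replicates; genes are counted at a difference of 2-fold or more, beside the share of all genes past the same fold. The arrays of knockout and mGS cells were both set against the same GS array, and mGS also serves in the comparison with ES.

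Marker genes followed the labels for the most part. All 8 germ cell markers were above the floor on the GS and knockout arrays, and all 8 pluripotency markers on the mGS and ES arrays, although 5 and 6 of the latter were above it on GS and knockout, and 6 and 4 of the germ cell markers on mGS and ES. Against GS all 8 germ cell markers were at least 2-fold lower on mGS, and 2, Gfra1 and Ret, on the knockout, at 655 against 1564 and 734 against 2076. Of 6 pluripotency markers compared there, 1, Sox2, was lower past that fold, at 185 on knockout against 1070 on GS, or 5.79-fold. Of all genes 6.93% were at least 2-fold lower than GS on the knockout and 16.5% on mGS. Summed over 12 fibroblast markers, the signal was 1546 on GS, 3042 on knockout, 4582 on mGS and 33370 on ES. Lum was under the floor throughout. On the knockout, 4 of 9 compared were at least 2-fold above GS, beside 9.77% of all genes. On mGS, 3 of 8 were at least 2-fold above GS and 1, Pdgfra, below it, beside 15.3% and 16.5%. Ccn2 at 1888 and Tagln at 1162 had the largest signals of the list on mGS, while Col1a1 read 245 there and 283 on GS. Of 5 Sertoli markers and of 5 leukocyte markers, 1 to 3 of each list were above the floor on any array. The leukocyte marker Cd68 read 970 on mGS against 177 on GS, 5.47-fold higher. In RNA of whole cultures, fewer cells of a type and less RNA per cell cannot be told apart. Control transcripts differed as well: the hybridisation control bioC was 5.09-fold to 5.81-fold lower on the knockout array than on the others. The hybridisation controls bioB and bioD differed less. On the knockout bioB read 676 against 1083 to 1213 on the others, and bioD 7526 against 11862 to 12344. The labelling control dap read 271 on GS and 255 on mGS against 3055 on knockout and 2545 on ES. The part of these controls in the results was not tested.

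The comparison of Trp53 knockout GS with GS cells bears most directly on these genes, since both are GS cultures in the same medium. Lower signals on the knockout array were the rule: of 30 genes compared, 22 were lower and 8 higher. The share lower was 73.3%, against 45.1% of all genes. The median log2 difference was -0.46 against 0.07 for all genes. At least 2-fold lower were 7, Epha2, Btg2, Plk2, Ccng1, Psrc1, Eda2r and Apaf1, or 23.3%, where 6.93% of 11623 genes lay past that fold in this direction. At least 2-fold higher were 3, Ddit4, Xpc and Tnfrsf10b, or 10%, close to the 9.77% of all genes. With arrays centred on their medians in place of quantile normalisation, 10 genes were lower and 1 was higher, beside 1072 and 838 of all genes.

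The knockout array was also the lowest of the 4 for most of these genes. Of the 32 genes above the floor somewhere, 22 (68.8%) had their lowest value on the knockout array, against 21.0% of 12897 genes. It was at least 2-fold below every other array for 6 genes, Epha2, Plk2, Ccng1, Psrc1, Eda2r and Apaf1, or 18.8%, against 2.57% of all genes. No p53 target was at least 2-fold below the other arrays on GS, mGS or ES, where 1.53%, 1.17% and 1.36% of all genes were. In the other direction, Ddit4 and Xpc were at least 2-fold above every other array on the knockout, 2 genes or 6.25%, against 4.47% of all genes. None was so on GS, mGS or ES, against 1.57%, 1.75% and 3.4%. Genes of DNA replication and mitosis shared the low place on the knockout array: 11 of 21 measured members of a proliferation list were at least 2-fold below every other array there. Their summed signal was 53387 on knockout against 113117 to 123739 on the others, and its part in the p53 target values was not tested.

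**Figure D1:**
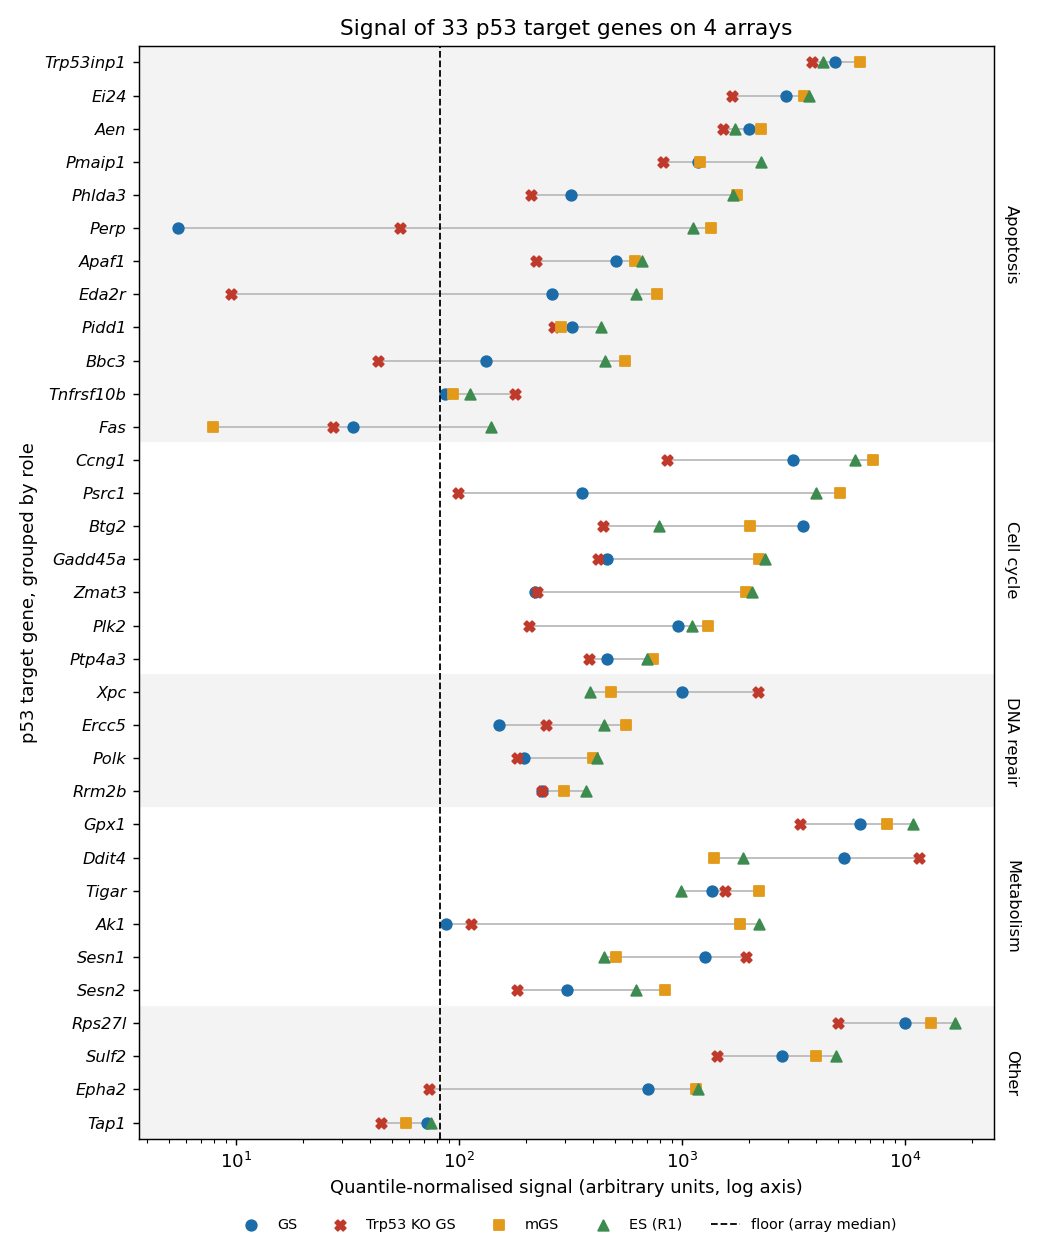
Quantile-normalised signal (log axis) of the 33 p53 target genes, 1 row per gene, on the GS, Trp53 KO GS, mGS and ES arrays, each a single measurement; the dashed line is the floor of 82.7. The knockout marker stands furthest left in 22 of the 32 rows that pass the floor, and the mGS and ES markers mostly lie close together.

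Among the genes of growth control, 4 of 7 were at least 2-fold lower on the knockout array and none higher, with a median log2 difference of -1.84, beside the 6.93% lower and 9.77% higher of all genes. With the mean of probe sets the calls for Plk2 and Psrc1 were lost, at -0.09 and -0.22. Ccng1, the cyclin G1 gene, a classical p53 target that recruits a phosphatase to Mdm2, read 3149 on GS, 854 on knockout, 7207 on mGS and 5971 on ES. The knockout array was the lowest and the difference from GS 3.69-fold; the other probe sets of Ccng1 gave 2.62-fold and 2.09-fold in the same direction.

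Plk2, a Polo-like kinase gene of the centriole cycle, read 958 on GS, 206 on knockout, 1312 on mGS and 1109 on ES. The 3 arrays other than the knockout lay close together, and the knockout was 4.66-fold below GS. A second probe set of Plk2 was under the floor on every array, so the value rests on 1.

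Psrc1, which encodes a microtubule-binding protein of the mitotic spindle, read 357 on GS, 99.7 on knockout, 5138 on mGS and 3994 on ES. Both GS cultures were far below the ES-type cultures, and the knockout, near the floor, was 3.58-fold below GS. Another probe set gave at least 2.15-fold.

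Btg2, an antiproliferative gene that promotes mRNA deadenylation, read 3496 on GS, 442 on knockout, 2013 on mGS and 792 on ES. Knockout was 7.92-fold below GS by this probe set. The second probe set of Btg2 did not show it: it read 669 on GS and 731 on knockout, a log2 difference of 0.13. The call for Btg2 therefore holds for 1 of its 2 probe sets.

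The other growth control genes were within 2-fold between knockout and GS. Gadd45a, a stress sensor gene of the G2 checkpoint, read 463 and 422. Zmat3, whose zinc finger protein binds RNA, read 220 and 224, and the phosphatase gene Ptp4a3 read 461 and 385. None of these gaps exceeded 1.20-fold.

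Among 10 apoptosis genes compared between knockout and GS, 9 were lower, 2 of them by at least 2-fold, and 1 was higher, by at least 2-fold. Of all genes 45.1% were lower, 6.93% at least 2-fold lower and 9.77% at least 2-fold higher. Eda2r, the receptor gene for the A2 form of ectodysplasin, read 261 on GS, 9.50 on knockout, 777 on mGS and 621 on ES. It was well above the floor on all arrays but the knockout, which was at least 3.16-fold below GS; with the floor at the 60th percentile the call was lost, at a log2 difference of -0.77. Apaf1, the scaffold of the apoptosome, read 507 on GS, 223 on knockout, 617 on mGS and 661 on ES, a gap of 2.28-fold that its second probe set put at 1.97-fold.

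Bbc3, which encodes the BH3-only protein PUMA, read 133 on GS, 43.4 on knockout, 555 on mGS and 454 on ES. Only the knockout was under the floor. With GS itself near the floor the bound was 1.61-fold, and with the floor at the 30th percentile Bbc3 counted among the genes at least 2-fold lower, with a log2 difference of -1.62.

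Pmaip1, the gene of the BH3-only protein NOXA, read 1188 on GS and 820 on knockout, a gap of 1.45-fold. Ei24, an endoplasmic reticulum protein gene, read 2933 and 1671, and Phlda3, a repressor of Akt, 320 and 211. These 3 stood below GS by less than 2-fold. Smaller still were the gaps of the nuclease gene Aen, 1999 and 1532, the caspase-2 platform gene Pidd1, 322 and 268, and the autophagy and stress gene Trp53inp1, 4876 and 3847.

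Tnfrsf10b, the mouse TRAIL death receptor gene, went the other way. It read 86.9 on GS, 178 on knockout, 93.9 on mGS and 112 on ES, so that 3 arrays were barely above the floor and the knockout was 2.05-fold above GS. Its second probe set gave at least 1.49-fold, and the call was lost with other choices of probe set, the higher floor and the pseudocount. The Perp and Fas signals were under the floor on both GS and knockout. Perp, an apoptosis effector of the desmosome, read 5.52 and 54.5 there, and Fas, another death receptor, 33.4 and 27.4.

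Genes of DNA repair and nucleotide supply were not lower as a group. Xpc, which recognises damage in nucleotide excision repair, read 1003 on GS, 2186 on knockout, 484 on mGS and 387 on ES, a knockout level 2.18-fold above GS that centring brought under 2-fold. Xpc was thus highest on the knockout and lowest on the arrays from ES cell medium. Ercc5, the excision repair nuclease gene XPG, read 151 on GS, 247 on knockout, 565 on mGS and 448 on ES. Polk, a translesion polymerase gene, read 196 on GS, 182 on knockout, 399 on mGS and 416 on ES. Both were higher on mGS and ES than on the GS arrays. Rrm2b, the p53-inducible ribonucleotide reductase subunit, read 236 on GS and 236 on knockout.

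Metabolic targets divided. Ddit4, an inhibitor of the growth kinase mTORC1 that also responds to hypoxia and to glucocorticoids, read 5322 on GS, 11616 on knockout, 1396 on mGS and 1885 on ES. It was highest on the knockout array, 2.18-fold above GS, and fell short of 2-fold with the values as deposited and with centring. Sesn1 and Sesn2, sestrin genes that restrain mTORC1, differed in direction: Sesn1 read 1273 on GS, 1939 on knockout, 507 on mGS and 447 on ES. Sesn2 read 307 on GS, 182 on knockout, 838 on mGS and 626 on ES, with the knockout lowest. By the 4 probe sets of Sesn1 the knockout was 1.14-fold, a bound, to 2.01-fold higher, and by the 2 of Sesn2 1.36-fold to 1.69-fold lower.

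Gpx1, a glutathione peroxidase gene, read 6292 on GS and 3393 on knockout, 1.85-fold lower. Tigar, a fructose bisphosphatase gene that slows glycolysis, read 1363 and 1555 by the probe set used, but its other probe sets were 1.58-fold and 2.57-fold higher on the knockout. Ak1, the adenylate kinase gene, read 87.8 and 114, both near the floor.

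Epha2, an ephrin receptor gene, read 702 on GS, 73.4 on knockout, 1154 on mGS and 1185 on ES, which puts the knockout under the floor and at least 8.49-fold below GS. Epha2 and Eda2r are both bounds, so they have no order: with no floor Eda2r had the larger log2 difference, -4.78. Rps27l, a ribosomal protein gene paralogous to Rps27, read 10007 on GS, 5012 on knockout, 13090 on mGS and 16794 on ES, just short of 2-fold. One of its other probe sets passed that fold, at 2.16-fold, and both others are of the _x_at kind, which can bind related transcripts.

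Sulf2, an extracellular sulfatase gene, read 2806 on GS, 1432 on knockout, 3989 on mGS and 4890 on ES, with the knockout lowest and 1.96-fold below GS. Its other probe sets were 1.25-fold and 1.32-fold higher on the knockout. Tap1, the peptide transporter gene of antigen presentation, was under the floor on all 4 arrays, between 44.8 and 75.02.

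**Figure D2:**
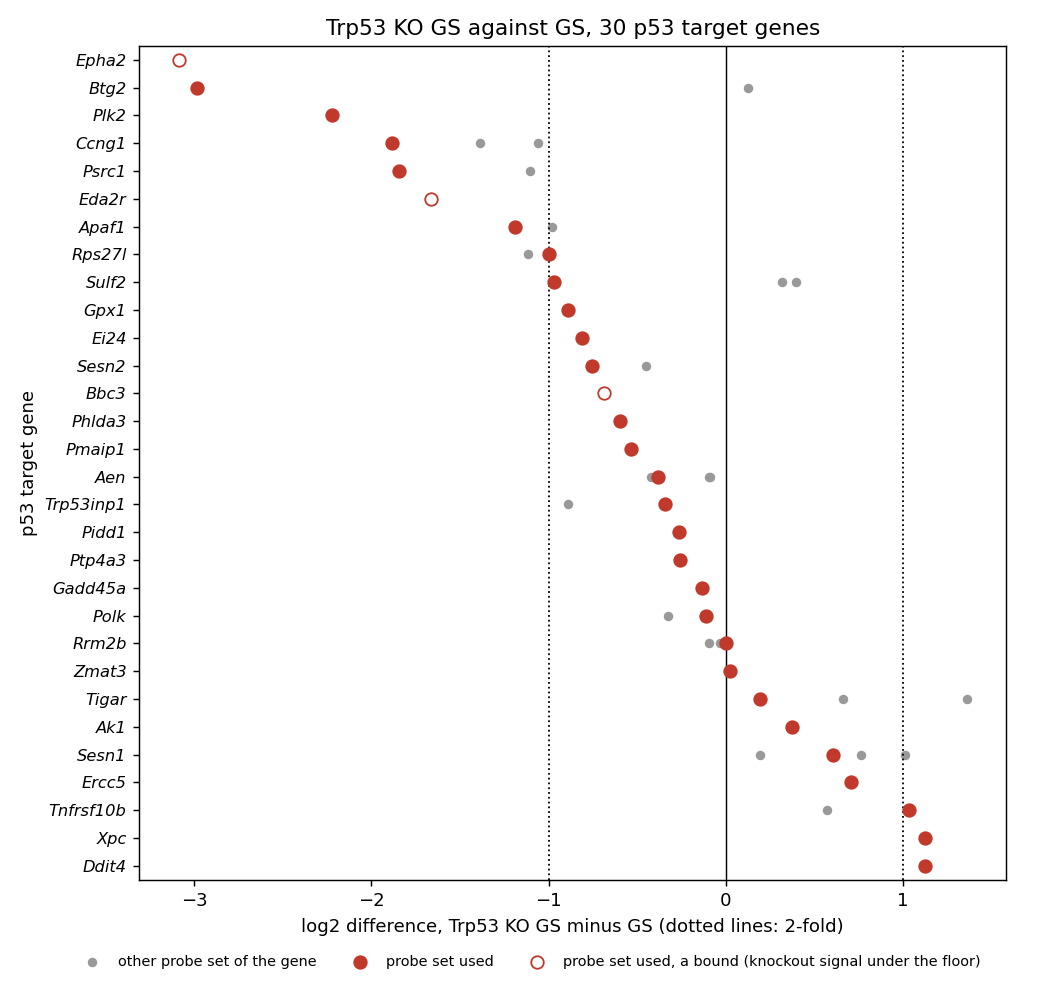
Log2 difference of Trp53 KO GS minus GS for the 30 p53 target genes above the floor on either array, sorted; large circles are the probe set used, open where the knockout signal was under the floor, and grey dots the gene's other probe sets. From Epha2 to Apaf1, 7 genes lie left of the 2-fold line and 3 lie right of it; Btg2 and Sulf2 have probe sets on both sides of 0.

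Over 14 genes with several probe sets usable in this comparison, 2 had probe sets of opposite sign, Btg2 and Sulf2, and none had probe sets at least 2-fold apart from 0 in both directions. For 6, Apaf1, Btg2, Rps27l, Sesn1, Tigar and Tnfrsf10b, the probe sets fell on different sides of a 2-fold line. Over all genes the standard deviation between probe sets of a gene was 0.52 on the log2 scale, a spread that includes probe behaviour but no variation between cultures. Between mGS and GS, 4 of 14 p53 targets with several usable probe sets had probe sets of opposite sign.

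**Figure D3:**
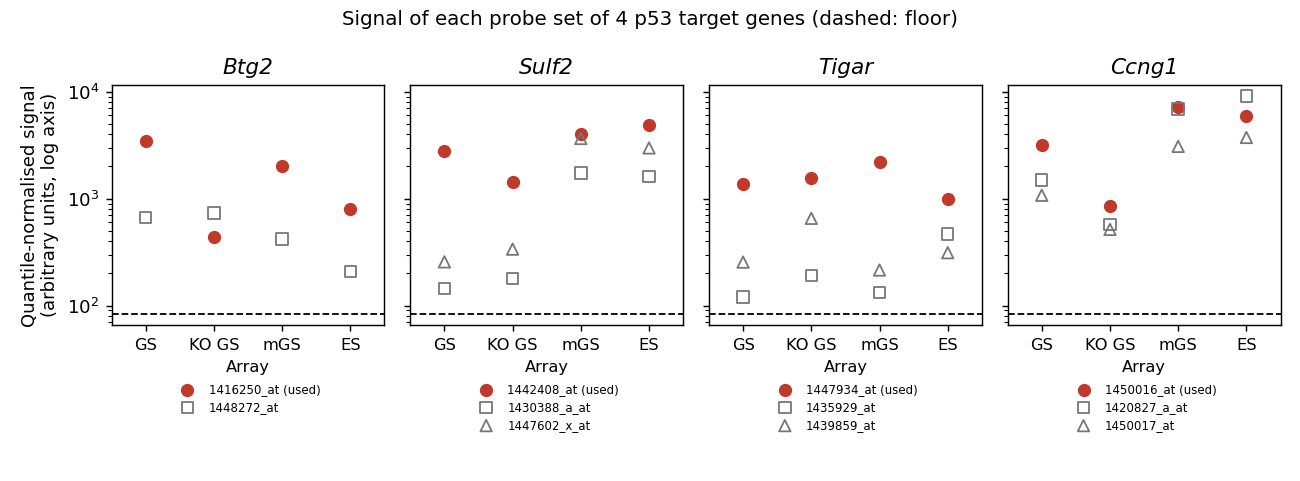
Quantile-normalised signal (log axis) of each probe set of Btg2, Sulf2, Tigar and Ccng1 on the 4 arrays; filled red circles are the probe set used, open symbols the others, and the dashed line the floor. The 3 probe sets of Ccng1 are all lowest on the knockout array, while those of Btg2, Sulf2 and Tigar order the arrays differently.

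Beside the sequence matches given above, the knockout differences were as follows. Of the 7 genes with a match, Ccng1 was lower by at least 2-fold, with a log2 difference of -1.88. Rps27l followed with -0.997, Gpx1 with -0.89, Bbc3 with a bound of -0.69 and Aen with -0.38, while Tigar and Sesn1 stood at 0.19 and 0.61. Of the 18 genes without a match in the window, 16 were compared, of which 6 were at least 2-fold lower and 1, Ddit4, at least 2-fold higher. Of all genes 6.93% were at least 2-fold lower and 9.77% at least 2-fold higher. The medians of both sets were close, -0.69 with a match and -0.78 without.

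In the comparison of mGS with GS cells, which the series made to look for molecules of the conversion, most of the p53 targets were higher on the mGS array. Of 31 compared, 26 were higher and 5 lower. The share lower was 16.1%, against 51.9% of all genes. The median log2 difference was 0.51 against -0.04 for all genes. At least 2-fold higher were 12, or 38.7%, against 15.3% of 11981 genes, and 3 were at least 2-fold lower, or 9.68%, against 16.5%. Cell type and medium changed together here and cannot be told apart.

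Many of the higher genes were higher on both arrays grown in ES cell medium. At least 2-fold above both GS arrays on both mGS and ES were 10 genes, or 31.2%, against 7.65% of 12897 genes. They were Bbc3, Perp, Eda2r and Phlda3 of apoptosis, Gadd45a, Psrc1 and Zmat3 of growth control, the polymerase gene Polk, and Sesn2 and Ak1 of metabolism. The reverse held for 3, Xpc, Sesn1 and Ddit4, or 9.38%, against 8.38%.

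Ak1, Perp and Psrc1 stood far above GS on the mGS array. Ak1 read 87.8 on GS, 114 on knockout, 1822 on mGS and 2216 on ES, a 20.8-fold difference between mGS and GS, which the mean of its probe sets brought to 1.79 on the log2 scale. The other probe set in that mean was under the floor on every array. Perp, at 1354 on mGS and 1124 on ES, was at least 16.4-fold above GS, and Psrc1 14.4-fold. Each of these genes was high on both arrays from ES cell medium and near or under the floor on at least 1 GS array.

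Zmat3 read 1942 on mGS and 2055 on ES, 8.83-fold above GS on the mGS array. Phlda3 read 1772 and 1697, 5.54-fold above GS, and Gadd45a 2222 and 2349, 4.80-fold above it. For these genes mGS and ES lay within 2-fold of each other, and so did GS and knockout. Bbc3, Ercc5, Eda2r, Sesn2, Ccng1 and Polk were 4.17-fold, 3.73-fold, 2.97-fold, 2.73-fold, 2.29-fold and 2.03-fold above GS on the mGS array. By the probe sets used, Ercc5 and Ccng1 did not reach 2-fold in every pair of arrays. The other probe sets of Ccng1 did, and were 4.58-fold and 2.86-fold above GS on mGS. With the mean of probe sets, Ercc5 and Polk lost the call between mGS and GS. The second probe set of Ercc5 was under the floor on every array. Polk also lost its call with the values as deposited, centring and the pseudocount.

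Sulf2 depended on the probe set here as well. The probe set used was 1.42-fold above GS on mGS, while the other 2 were 12.0-fold and 14.3-fold above it, from 144 and 256 on GS to 1736 and 3651 on mGS. The array with the highest signal for Sulf2 also differed between probe sets.

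At least 2-fold below GS on mGS were Ddit4 by 3.81-fold, Sesn1 by 2.51-fold and Xpc by 2.07-fold; the call for Sesn1 was lost with the mean of its probe sets. The remaining genes lay within 2-fold of GS: Apaf1, Ei24, Aen, Trp53inp1, Pmaip1, Pidd1, Tnfrsf10b, Btg2, Plk2, Ptp4a3, Rrm2b, Tigar, Gpx1, Rps27l, Sulf2 and Epha2. Fas and Tap1 were under the floor on both arrays.

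**Figure D4:**
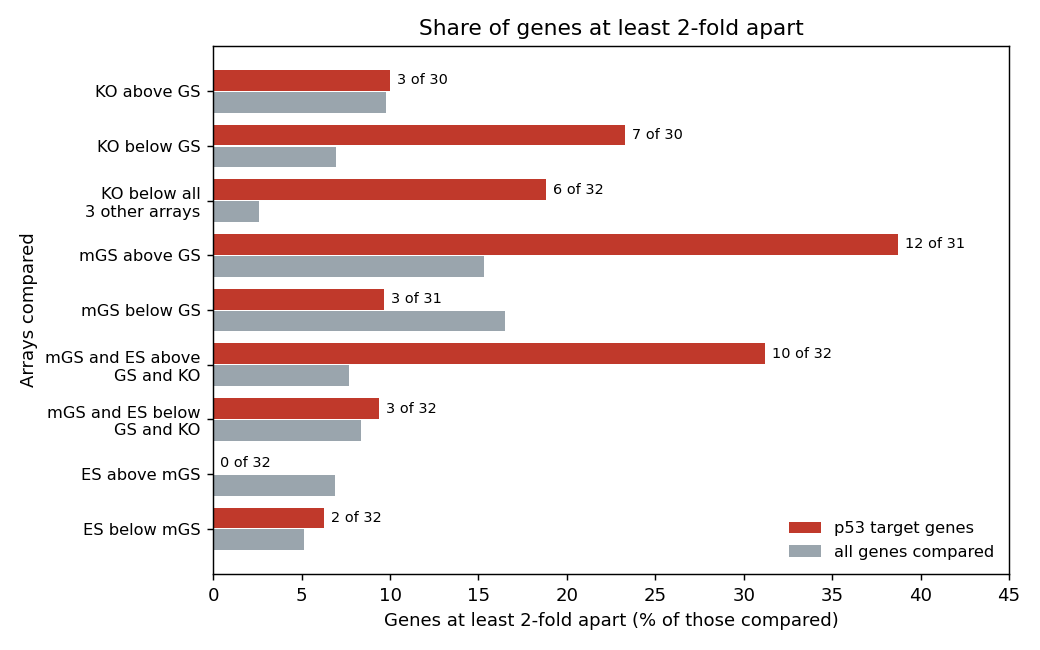
Share (%) of genes past 2-fold, for the p53 target genes (red) and for all genes compared (grey), in 9 array comparisons; counts of p53 targets stand at the bars, and each bar rests on single arrays. The red bar is more than 2 times as long as the grey for KO below GS, KO below all 3 other arrays, mGS above GS, and mGS and ES above GS and KO.

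Between ES and mGS cells, both in ES cell medium, the p53 targets differed little. Of 32 compared, 30 lay within 2-fold. On ES 16 were higher and 16 lower, where 49.7% of all genes were lower. The median log2 difference was -0.01 beside 0.00 for all genes. None was at least 2-fold higher on ES, where 6.9% of 11816 genes were, and 2 were at least 2-fold lower, or 6.25%, against 5.13%. The standard deviation over the genes was 0.48, against 0.72 over all genes. Of 15 p53 targets with several probe sets usable here, 7 had probe sets of opposite sign. The direction of small gaps thus depended on the probe set.

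Btg2, at 2013 on mGS and 792 on ES, was 2.54-fold lower, and its second probe set gave 2.001-fold in the same direction. Tigar read 2224 on mGS and 994 on ES by the probe set used, 2.24-fold lower on ES. Its other probe sets were 3.54-fold and 1.45-fold higher on ES, so no direction can be given for Tigar. Trp53inp1 read 6286 on mGS and 4312 on ES by the probe set used, 1.46-fold lower on ES. Its second probe set was 2.006-fold lower there, past the 2-fold line. Pmaip1 was 1.88-fold higher on ES, the largest measured gap upward. Fas was above the floor on the ES array alone, at 139, at least 1.68-fold above mGS. Of 11 fibroblast markers compared, 10 were at least 2-fold higher on ES, and their part in the Fas value was not tested.

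Other genes of the pathway gave a mixed picture. Of 17 further textbook targets, 13 are reported here. Between knockout and GS 10 could be compared, with a median log2 difference of -0.09. Past 2-fold 3 were lower and 2 higher, beside 6.93% and 9.77% of all genes. Cd82, a metastasis suppressor gene, read 972 on GS and 110 on knockout, 8.80-fold lower, and was under the floor on mGS at 17.7. Gtse1, a microtubule protein gene that restrains p53 in G2, was 4.42-fold lower, and Triap1, an inhibitor of apoptosis, 2.19-fold lower. Thbs1, the thrombospondin gene, was 2.87-fold higher, and Dram1, a lysosomal gene of autophagy, at least 2.01-fold higher. These calls were lost for Cd82 with the mean of probe sets, for Triap1 with the pseudocount, for Thbs1 and Dram1 with the higher floor, and for Dram1 with centring as well. Cdkn1a, the p21 gene and the textbook mediator of p53-dependent arrest, read 1095 on GS, 595 on knockout, 965 on mGS and 2815 on ES. The knockout was the lowest array for Cdkn1a, by 1.84-fold against GS.

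Between mGS and GS the further targets had a median log2 difference of 0.71. Past 2-fold were 3 upward and 2 downward, of 11 compared, beside 15.3% and 16.5% of all genes. Sfn, the 14-3-3 sigma gene, was 6.44-fold and Thbs1 5.27-fold higher, and Cd82 at least 11.8-fold lower, a call lost with the mean of probe sets. On ES, 4 of 13 were at least 2-fold above mGS and none lower, beside 6.9% and 5.13% of all genes.

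Genes that regulate p53 mostly lay within 2-fold in the knockout comparison. Of 19 measured, 17 were compared, with a median log2 difference of 0.12. Past 2-fold was 1, upward, beside 9.77% higher and 6.93% lower of all genes. The one was Ppp1r13b, which encodes ASPP1, a partner that steers p53 toward apoptosis genes, at 1715 on GS and 3984 on knockout, 2.32-fold higher, and under 2-fold with centring. Mdm2, the ubiquitin ligase that degrades p53 and is itself a target, read 2698 and 3425, within 2-fold. Between mGS and GS 18 regulators were compared, and past 2-fold 3 were higher and 5 lower, beside 15.3% and 16.5% of all genes. Pml, of nuclear bodies that modify p53, was under the floor on GS and at 2711 on mGS, at least 32.8-fold higher, and Ppp1r13b was 6.72-fold lower.

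Proliferation genes had the lowest median of the lists in the knockout comparison, -1.12 over 21 genes, and 14 of them passed 2-fold, each downward. Of all genes 6.93% did so downward and 9.77% upward. Rrm2, the replicative ribonucleotide reductase subunit, read 4640 on GS and 297 on knockout, and Mki67 6715 and 487. The p53-inducible paralogue Rrm2b, at 236 on both arrays, did not share that gap. Between mGS and GS the proliferation median was -0.21, and 2 of the 21 passed 2-fold, 1 in each direction. Of all genes 15.3% were higher and 16.5% lower past that fold. The 10 housekeeping genes measured had medians of 0.06 and -0.09 in these comparisons, and 1 of them, Pgk1, passed 2-fold between mGS and GS. Pgk1 read 1339 on GS and 12740 on mGS, 9.52-fold higher.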

How the data were processed

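The authors deposited 1 linear intensity per probe set and array for 4 Affymetrix arrays; per the labels' protocols biotin-labelled cRNA was made from Trizol-extracted RNA. Which software summarised the probes was not given in the sources used here. Each array has a mean of 500.003 after trimming 2% of values at each end, so the deposited intensities had been scaled. Of 45101 probe sets, 64 controls were set aside. Log2 intensities were quantile normalised over the arrays, which hides a change in total RNA. Of 35890 annotated probe sets, 34958 had 1 symbol and 932 several; the latter were left out, 34754 matched the gene table of GRCm38.p6, used for names, and 9160 of the probe sets used were unnamed. A gene took its probe set of highest mean, and signals under the array median (log2 6.37) were raised to it. With 1 array per group there is no test, and the number of arrays limits precision. All 33 genes are named. All 4 signals are given where a gene passed 2-fold in any of 3 comparisons or its probe sets fell on different sides of 2-fold. Genes of the regulator, further target and proliferation lists are named only at 2-fold in the knockout or 4-fold in the mGS comparison. At most 6 are named a list and direction. Cdkn1a and Mdm2 are exceptions, named after their values were seen. The rule did not cover the housekeeping and marker lists. Pgk1 is named from them, also after its values were seen, and Col1a1 and Lum are named though they passed neither fold. The 33 genes and all lists were chosen with earlier results of these data known. Steps were tested on simulated data. Python 3.11.15, numpy 2.4.6, pandas 2.3.3 and matplotlib 3.10.9 were used.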

Additional observations from a re-analysis of the deposited data

How the results depend on the processing

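The settings varied were the scaling (none beyond the deposited values, or centring), the probe sets of a gene (their mean, or without the _x_at and _s_at kinds, or with those of several symbols), and the floor (30th or 60th percentile, none, or none with a pseudocount of 32). Centring shifted the all-gene median of the knockout comparison by -0.16 and that of ES with mGS by -0.11. It left 1 p53 target, Tnfrsf10b, at least 2-fold higher in the knockout. The count of genes at least 2-fold lower there ranged from 6 to 10, the median log2 difference from -0.65 to -0.35, and the count with the knockout at least 2-fold below every other array from 5 to 9. Against GS, 11 to 12 genes were higher on mGS and 2 to 4 lower. With the mean of probe sets, Plk2 and Psrc1 lost the call in the knockout (-0.09 and -0.22), since their dim probe sets pull the mean toward the floor; Tigar turned to 0.40 between ES and mGS, which left 1 gene lower on ES. With the floor at the 30th percentile, no floor or the pseudocount, 1 gene, Fas, was at least 2-fold higher on ES. With the floor at the 60th percentile Eda2r lost its call, at -0.77. Of 1190 values of single genes under these alternatives, 1130 moved by less than the spread between probe sets. Of the 1190 values 21 changed sign. Of these 21, 1, Tigar above, had been past 2-fold, and the others had been within 0.392 of 0 on the log2 scale. No paired analysis was possible because each group has 1 array. Signals near the floor carry little information on size.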
